A study of Mus musculus with 6 samples.

Results

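The mitochondrial ribosomal protein genes were taken as the protein-coding genes whose symbol starts with Mrpl or Mrps followed by a digit, which gave 78 of the 21887 protein-coding genes of the mouse gene table. They were described in 6 CUT&Tag libraries of group 2 innate lymphoid cells (ILC2s), lymphocytes of mucosal tissue that secrete type 2 cytokines. All cells came from the mouse colon, were cultured with IL-33, IL-25, IL-7 and IL-2, and were sorted before the libraries were made. The Control group had no further agent, the FK866 group received FK866, which blocks NAMPT, the enzyme that salvages nicotinamide for NAD, and the FK866 plus succinate group received FK866 together with succinate, a metabolite of the tricarboxylic acid cycle. Each of the 3 groups held 2 libraries. Doses, times, mouse strain and age were not given in the sources used here, and neither was the antibody target, so a peak marks a stretch enriched for an unnamed chromatin protein or mark. Whether the pair of libraries in a group came from different cultures or mice is not stated in the labels; their p-values therefore reflect the spread of these libraries alone, which may be technical.

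The mitochondrial ribosome translates the few proteins encoded in mitochondrial DNA, which are core subunits of the respiratory chain and ATP synthase. Its ribosomal RNAs are made in the mitochondrion, but all of its proteins are encoded in the nucleus, made in the cytosol and imported. Some have counterparts in the bacterial ribosome and others were added in the mitochondrial lineage. The gene names kept from early purifications do not always give the subunit: Mrps30 and Mrps18a encode proteins of the large subunit, and Mrps36 encodes a protein associated with the oxoglutarate dehydrogenase complex. By this textbook grouping the set held 30 large-subunit genes with a bacterial counterpart, 21 mitochondria-specific large-subunit genes, 16 small-subunit genes with a bacterial counterpart and 10 mitochondria-specific small-subunit genes, with Mrps36 left outside both subunits.

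The lists held 40320 to 56361 peaks per library and covered 39.0 to 43.8 Mb. The Control libraries differed, with 50489 peaks over 43.8 Mb in the first and 41023 over 39.4 Mb in the second. The second FK866 plus succinate library stood apart, with the most peaks (56361), the shortest median peak (528 bp, against 616 to 737 bp in the other 5) and the lowest inferred background (1.25 fragments per position, against 1.60 to 2.14). Read depth is not recorded in peak lists, so this background is only a relative measure. The labelled cell type was checked at marker genes: all 14 ILC2 markers, among them Gata3, Rora, Il1rl1 and Il13, had a peak in all 6 libraries. Of the markers of other cells, 3 of 6 for ILC1 and NK cells, 1 of 5 for ILC3s, 3 of 5 for T cells, 3 of 4 for B cells, 1 of 5 for myeloid cells and 3 of 5 for epithelial cells also had a peak in all 6. No library had a peak at Ifng, Ncr1, Klrb1c, Il17a, Il23r, Cd8a, Ms4a1, Adgre1 or Krt20.

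All 78 mitochondrial ribosomal protein genes had at least 1 peak within the gene span and 2 kb to either side in every library, against 14038 of all 21887 genes (64.1%). The covered length, which is the number of bases of that window lying under peaks, had a median of 1800 bp over the 78 genes and 2019 bp over the 15362 genes covered in at least 2 libraries. These are short genes, with a median span of 7690.5 bp against 17169 bp for all protein-coding genes and 22141.5 bp for the genes tested. Relative to the window the order was the other way, with 15.2% of the window covered at the median mitochondrial ribosomal protein gene and 8.15% over the genes tested. The strongest peak of each gene ranked high within its own list. Its -log10 p percentile had a median of 93.8 over the 78 genes and 85.9 over all genes tested, its deposited fold enrichment over the local background of the same library had a median of 9.75 against 7.73, and its width was alike (1510 and 1509 bp). Of the 92 nuclear respiratory chain and ATP synthase genes, 86 (93.5%) had a peak in all 6 libraries. The 88 of them tested were close to this profile, with a median percentile of 93.9, a fold of 9.68 and a width of 1532 bp. Of the 85 cytosolic ribosomal protein genes, 82 (96.5%) had a peak in all 6 libraries. The 82 tested had wider strongest peaks with less enrichment (1912 bp and 7.94-fold, percentile 91.3).

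The mitochondrial ribosomal protein genes differed widely among themselves. The longest mean values over the 6 libraries were those of Mrps18b (4084 bp), Mrps27 (4072 bp), Mrpl48 (4023 bp), Mrps23 (3799 bp) and Mrpl1 (3786 bp), and the shortest those of Mrpl44 (813 bp), Mrps17 (1011 bp), Mrpl11 (1041 bp), Mrps33 (1165 bp) and Mrpl42 (1172 bp). The 5 with the longest coverage did so in different ways. At Mrps18b, a small-subunit gene paired head to head with Ppp1r10, 40.6% of a short window lay under 2 or 3 peaks, whereas at Mrps27, which spans 70796 bp, 3 to 5 peaks covered 5.44% of the window. The 5 genes with the least coverage had narrow peaks with high enrichment. At Mrpl44, whose protein has a ribonuclease III-like fold, the strongest peak was 769 bp wide on average, 18.9-fold over background and at percentile 98.6. The highest mean percentiles were those of Mrps9 (99.8), Mrpl9 (99.7) and Mrps36 (99.6), and the lowest that of Mrps34 (81.4), where a single peak of 2544 to 2765 bp had a mean fold of 4.29. Mrpl40 showed how little a gene could vary: its single peak covered 2267 and 2266 bp in Control, 2269 and 2247 bp in FK866, and 2250 and 2258 bp in FK866 plus succinate. By role, the median covered length was 1770 bp for large-subunit genes with a bacterial counterpart and 1961 bp for those specific to mitochondria, and 1502 and 1846 bp for the same classes of the small subunit.

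**Figure D1:**
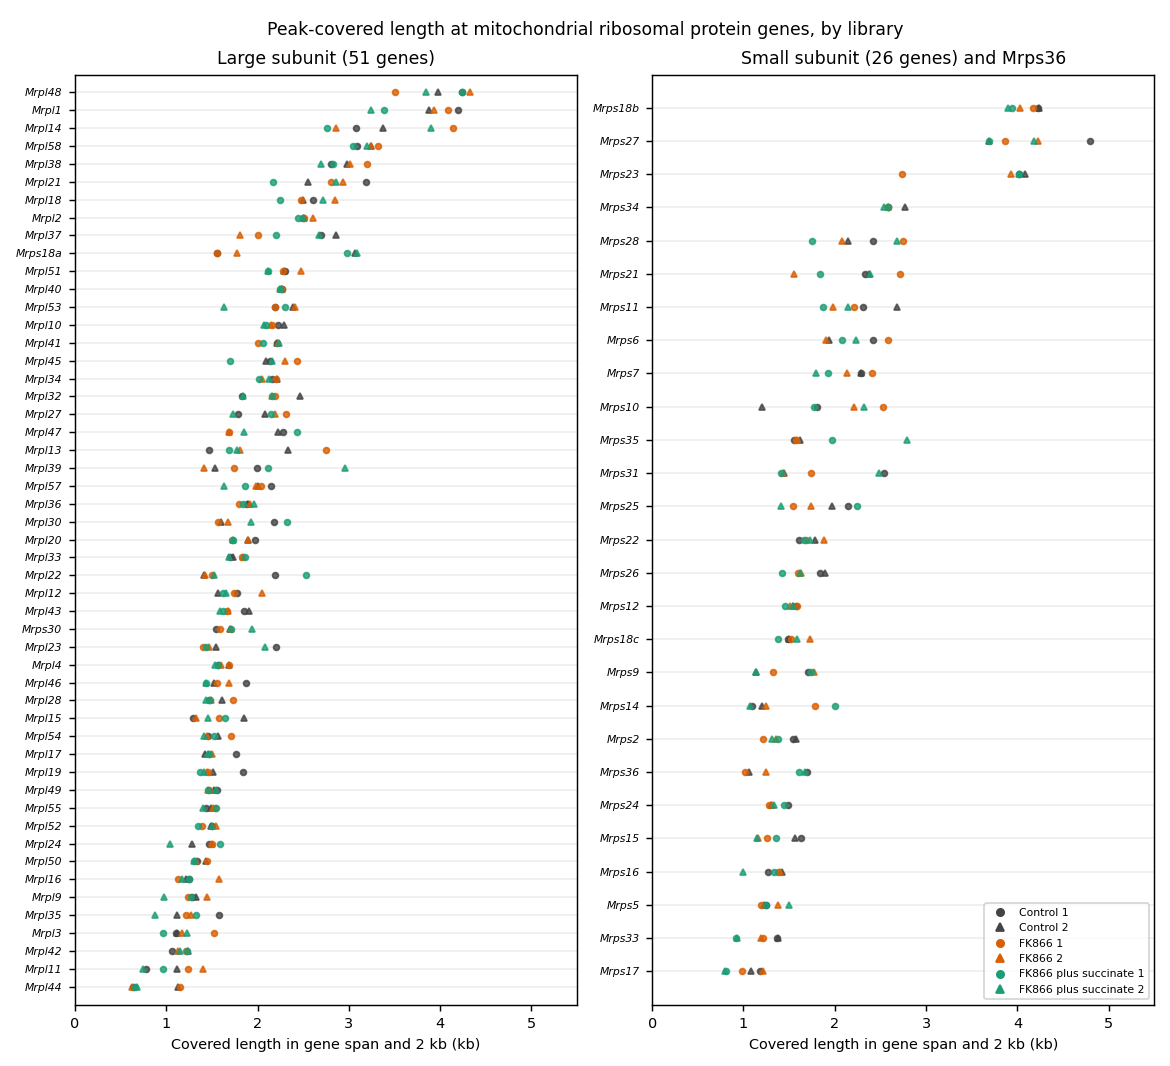
Covered length in kb (horizontal axis) of each mitochondrial ribosomal protein gene within its span and 2 kb, with 1 point per library, coloured by group and shaped by replicate; genes are ordered by their mean, large subunit left, small subunit and Mrps36 right. Every gene has points above 0 in all 6 libraries, from a mean of 813 bp at Mrpl44 to 4084 bp at Mrps18b, and the colours are mixed at most genes.

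Most of these peaks sat at gene starts. RefSeq promoter entries (GRCm38.p6) gave a start and strand for 69 of the 78 genes. The entries used here held none for Mrpl4, Mrpl13, Mrpl15, Mrpl19, Mrpl38, Mrpl54, Mrps28, Mrps34 and Mrps35. For 62 of the 69 the summit of the strongest peak lay within 500 bp of the start in all 6 libraries, and for 64 the peak spanned the start in all 6. The median summit lay 80 bp inside the gene, with 45 genes having theirs downstream of the start and 24 upstream. The 7 genes outside the 500-bp limit in at least 1 library were Mrpl10, Mrpl20, Mrpl22, Mrpl34, Mrpl55, Mrpl58 and Mrps30. At Mrpl10 the strongest peak lay 9430 to 9589 bp from the start in 5 libraries, past the gene's far end, where Lrrc46 and Osbpl7 are neighbours, and 179 bp from the start in the second FK866 plus succinate library.

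Mitochondrial ribosomal protein genes often shared their start region with another gene. A divergent start, one on the opposite strand and pointing away, lay within 1 kb for 24 of the 69 genes (34.8%), against 1483 of 17492 genes with an entry (8.48%). The distance between these paired starts was 32 to 935 bp with a median of 136 bp, and 19 of the 24 were at most 250 bp apart. Several partners also serve mitochondria. Mrpl46 and Mrps11, of the large and the small subunit, start 42 bp apart; Mrps12 is paired with Sars2, the mitochondrial seryl-tRNA synthetase (147 bp); Mrpl43 with Twnk, the mitochondrial DNA helicase (116 bp); Mrpl47 with the complex I gene Ndufb5 (308 bp); and Mrps27 with Ptcd2, a pentatricopeptide repeat protein of mitochondria (108 bp). Others have other roles, such as Fau beside Mrpl49, whose product includes a cytosolic ribosomal protein, Psma2 of the proteasome beside Mrpl32, and the histone chaperone gene Hira beside Mrpl40.

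The shape of the peak differed with this arrangement. At the 24 paired genes the strongest peak reached a median of 1027 bp upstream of the start and 776 bp downstream, and 17 of them had the longer arm upstream. At the 38 unpaired genes whose summit lay near the start, the medians were 340 bp upstream and 911 bp downstream, and 5 had the longer arm upstream. Median widths were 1680 and 1353 bp, and the median summit position relative to the start was -75.4 bp (upstream) in the first set and 186 bp (downstream) in the second. This is a description of peaks pooled over all 3 groups, without a test. One peak over a paired start belongs to both genes, so Mrpl46 and Mrps11 in particular share their strongest signal and are not independent. A wider count of neighbours gave 52 of 78 windows (66.7%) within 2 kb of another protein-coding gene, against 8144 of 21887 (37.2%).

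**Figure D2:**
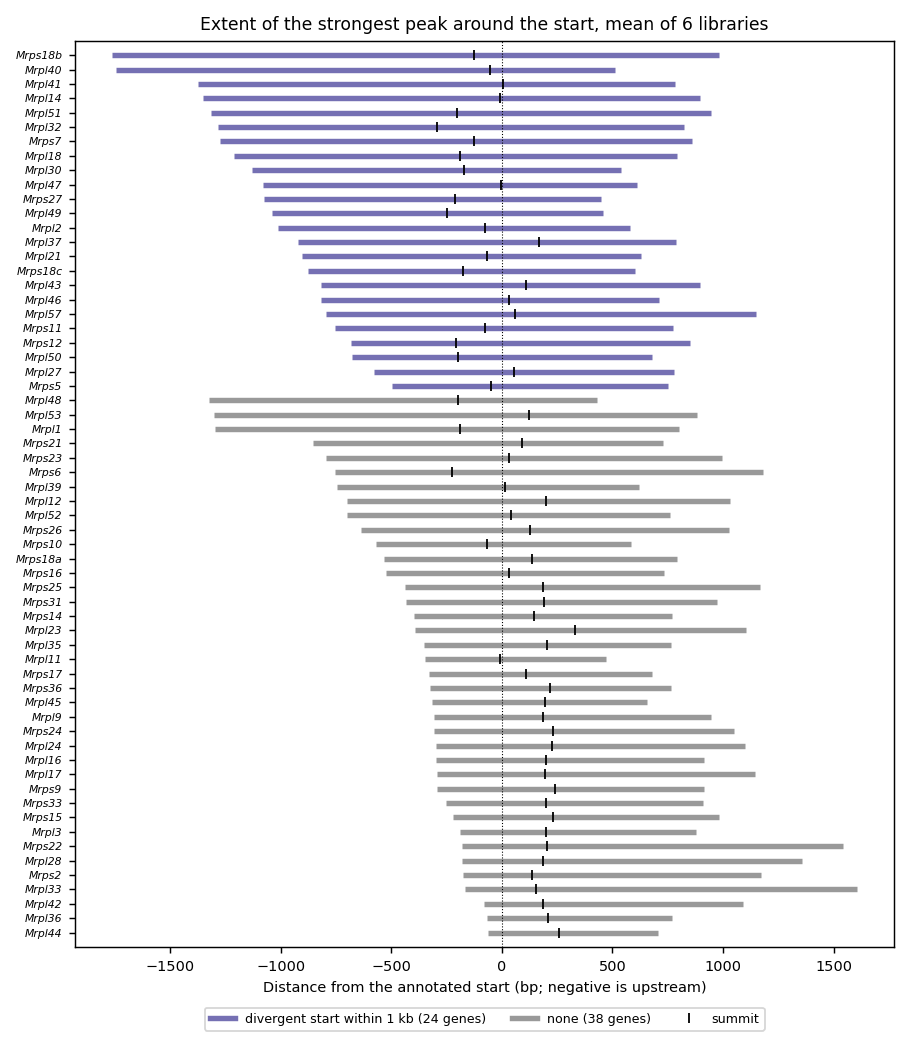
Extent of the strongest peak of 62 mitochondrial ribosomal protein genes around the annotated start (horizontal axis, distance in bp, negative upstream), as the mean of the 6 libraries; bars are peaks, black ticks summits, purple the 24 genes with a divergent start within 1 kb and grey the 38 without. The purple bars reach farther upstream (median 1027 bp) than the grey ones (median 340 bp).

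The bases just upstream of the start are shown for the 3 genes with the smallest unadjusted p in the comparisons below that hold a searched motif (Mrps33, Mrpl37 and Mrps15), and, chosen after their values were seen, for the gaps that Mrps11 shares with Mrpl46 and Mrpl43 with Twnk, as examples of paired starts. They run 5′ to 3′ on the strand of the named gene and end at its start, and those of Mrpl37, Mrps11 and Mrpl43 begin at the partner's start. Capitals mark motifs: GGGCGG or its reverse complement CCGCCC, bound by factors of the SP and KLF families, and CCGGAAG, a core of the ETS family. Positions are in GRCm38.p6, which has the chromosome coordinates of mm10: Mrps33 chr6:39810937-39811186, minus strand; Mrpl37 chr4:107066867-107066993, minus strand; Mrps15 chr4:126046678-126046927, plus strand; Mrps11 chr7:78783090-78783130, plus strand; Mrpl43 chr19:45006443-45006557, minus strand.
Mrps33: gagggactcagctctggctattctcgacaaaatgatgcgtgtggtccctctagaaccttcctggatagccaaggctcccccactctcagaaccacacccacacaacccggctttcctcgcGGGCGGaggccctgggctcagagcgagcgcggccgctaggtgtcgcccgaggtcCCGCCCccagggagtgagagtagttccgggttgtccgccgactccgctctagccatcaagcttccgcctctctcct
Mrpl37: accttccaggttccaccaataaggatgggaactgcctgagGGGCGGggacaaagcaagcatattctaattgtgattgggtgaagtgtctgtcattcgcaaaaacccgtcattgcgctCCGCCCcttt
Mrps15: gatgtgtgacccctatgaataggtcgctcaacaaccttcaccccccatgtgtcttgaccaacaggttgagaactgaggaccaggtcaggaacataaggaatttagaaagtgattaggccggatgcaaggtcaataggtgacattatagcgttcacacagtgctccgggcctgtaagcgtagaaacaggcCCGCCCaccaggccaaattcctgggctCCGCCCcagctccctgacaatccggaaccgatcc
Mrps11 and Mrpl46 gap: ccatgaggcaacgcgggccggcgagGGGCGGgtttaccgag
Mrpl43 and Twnk gap: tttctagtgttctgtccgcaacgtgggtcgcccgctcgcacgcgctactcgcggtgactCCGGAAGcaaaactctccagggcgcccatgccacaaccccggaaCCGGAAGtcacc

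Of the 69 promoters (250 bases before the start to 50 after, both strands searched), 36.2% held CCGGAAG, against 16.1% of the 12717 promoters of genes tested and 12.2% of all 17492. The cytosolic ribosomal protein genes had it in 40% of 65 promoters and the respiratory chain genes in 22.7% of 75. GCGCATG, a core of the site of NRF1, a regulator of nuclear genes for mitochondria, was in 11.6% of the 69, against 6.34% of the genes tested and 18.7% of the respiratory chain genes. GATGGCG, a core of the YY1 site, was also in 11.6%, against 5.78% of the genes tested. GGGCGG was in 49.3%, against 61.4% of the genes tested. None of the 4 motifs occurred in 17 of the 69 (24.6%), against 30.4% of the genes tested. The median number of CG dinucleotides per promoter was 21, against 20 for the genes tested. A motif here is a match of letters, with no binding measured. In the sequences above, the motifs of Mrpl43 begin 56 and 12 bases before its start, and those of Mrps33, 130 and 76 bases before it.

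The first comparison, FK866 against Control, bears on the effect of blocking NAD salvage. No mitochondrial ribosomal protein gene lost or gained all its peaks (both libraries of one group with a peak, neither of the other), against 0.525% of 21887 genes that lost and 0.114% that gained. This follows, here and in the later comparisons, from all 78 having a peak in every library. In covered length, none of the 78 passed an adjusted p of 0.05 (limma, Benjamini-Hochberg over 15362 genes; 0 of all genes, 0%, passed), and the smallest adjusted p among them was 0.893. At an unadjusted p under 0.05, 1 was wider and 2 were narrower, against a background of 1.54% of genes wider, 3.68% narrower and 5.23% in either direction. The median difference was -12.75 bp, against -42 bp over all genes tested, with 35 genes wider and 43 narrower. Scaling each library to its median turned this sign, to 38.9 bp over the 78 genes and 22.1 bp over all genes. The groups did not overlap with FK866 above for 11 genes (background 12.8%) and below for 15 (background 19.9%), which is near the background on both sides.

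The 3 genes with the smallest p values varied mostly outside their lead region. Mrpl37, a mitochondria-specific protein of the large subunit, was covered over 2693 and 2861 bp in Control, 2004 and 1805 bp in FK866, and 2199 and 2672 bp in FK866 plus succinate. Both FK866 libraries lay below all 4 others, and FK866 differed from Control by -872.5 bp (SE 213, adjusted p = 0.893, limma). Of that difference -754 bp lay outside the lead region. The lead region is the merged peak region holding the lead summit, cut off at the edges of the gene span and 2 kb. The lead summit is the summit position whose overlying peaks ranked highest by -log10 p percentile, averaged over the 6 libraries. Ties were given to the lowest coordinate. Mrps10, of the small subunit with a bacterial counterpart, had 1810 and 1201 bp in Control, 2527 and 2213 bp in FK866, and 1769 and 2321 bp in FK866 plus succinate. FK866 lay above Control at Mrps10 in both libraries (864.5 bp, SE 304, adjusted p = 0.908, limma), while the difference at its lead region was -137.5 bp. Mrps15, of the small subunit with a bacterial counterpart, had 1626 and 1565 bp in Control, 1254 and 1155 bp in FK866, and 1352 and 1147 bp in FK866 plus succinate. All 4 treated libraries lay below both Control libraries at Mrps15 (FK866 minus Control -391 bp, SE 122, adjusted p = 0.901, limma), with -30 bp of the difference at the lead region. The other 8 narrower genes with the smallest p were Mrpl47, Mrps2, Mrpl43, Mrps26, Mrps11, Mrps33, Mrps23 and Mrpl19, between -716.5 bp (Mrps23) and -171 bp (Mrps33). The other 9 wider ones were Mrpl11, Mrpl27, Mrpl12, Mrpl3, Mrpl45, Mrpl38, Mrpl33, Mrps14 and Mrps18c, between 124 bp (Mrpl33) and 371 bp (Mrpl11). By role, the median difference was 24 bp for large-subunit genes with a bacterial counterpart, -8.5 bp for mitochondria-specific ones, and 16 and -182.75 bp for the same classes of the small subunit. These values moved with the scaling: with quantile normalization they were 90.6, 36.3, 72.0 and -71.2 bp, and with each library scaled to its median 99.4, 31.0, 75.3 and -88.3 bp, so the sign turned for the mitochondria-specific large-subunit genes. Of the 10 mitochondria-specific small-subunit genes 9 were narrower without scaling, as were 8871 of all 15362 genes tested, and 5 lay below Control without overlap (background 19.9%). None of the 10 passed an unadjusted p of 0.05.

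**Figure D3:**
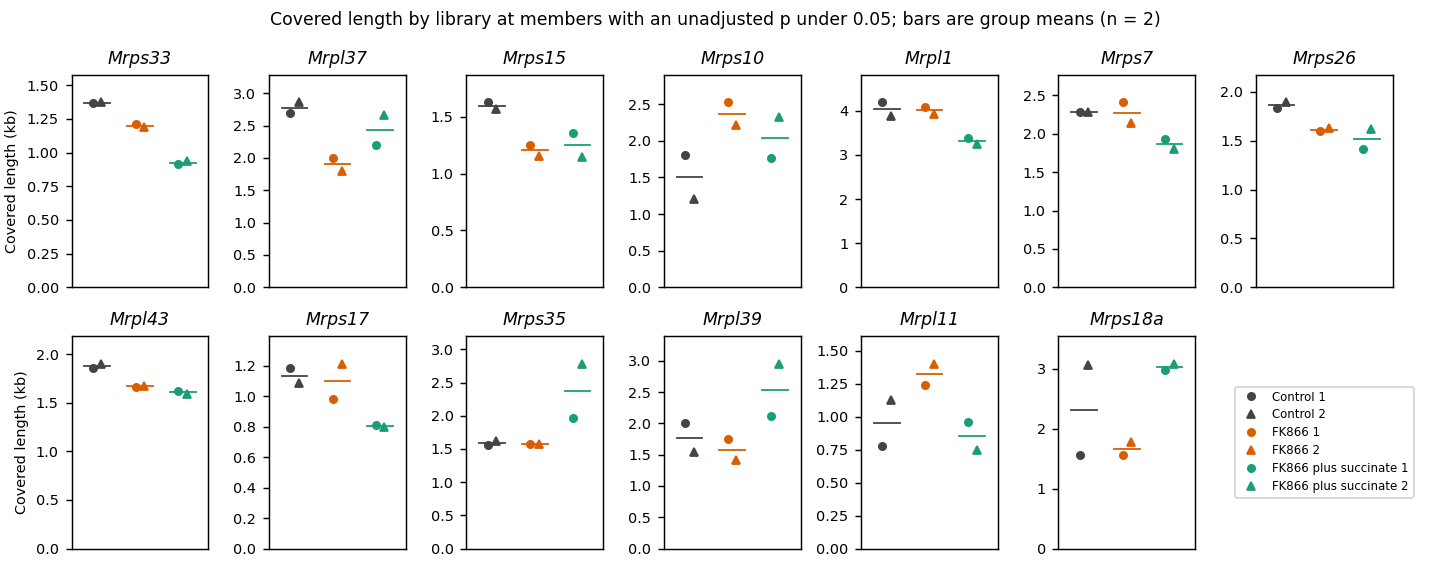
Covered length in kb (vertical axis, from 0) in each library at the 13 mitochondrial ribosomal protein genes with an unadjusted p under 0.05 in any comparison; points are libraries, horizontal bars the means of 2. Mrps33 steps down from 1371 bp in Control to 1200 and 924 bp, whereas at Mrps35 and Mrps18a the FK866 plus succinate libraries lie high.

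Adding succinate to FK866 was compared with FK866 alone. Again no gene of the set lost or gained all its peaks, against 0.315% of genes lost and 0.658% gained, and none of the 78 passed an adjusted p of 0.05 (0 of 15362 genes, 0%; smallest adjusted p 0.547, limma). At an unadjusted p under 0.05, 3 were wider and 4 narrower, against 4.81% and 3.76% of all genes tested (8.57% in either direction). The median difference was -87.75 bp, against -6.75 bp over all genes, with 24 genes wider and 54 narrower. With quantile normalization it was -97.0 bp (-37.3 bp over all genes), and with each library scaled to its median -116.7 bp (-37.7 bp). The median covered length of the 78 genes was 1702.5 and 1701.5 bp in the FK866 libraries and 1736 and 1707.5 bp in the FK866 plus succinate libraries, so the median level did not show the direction of the median difference. The groups did not overlap for 10 genes with FK866 plus succinate above (background 17.9%) and for 25 with it below (background 21.8%).

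Mrps33, a mitochondria-specific protein of the small subunit, had a single peak in each library and the smallest p of the set over the 3 comparisons. It covered 1369 and 1373 bp in Control, 1209 and 1191 bp in FK866, and 914 and 934 bp in FK866 plus succinate. The 3 groups did not overlap at Mrps33, and FK866 plus succinate differed from FK866 by -276 bp (SE 95.2, adjusted p = 0.559, limma) and from Control by -447 bp (SE 95.2, adjusted p = 0.438). Mrps7, of the small subunit with a bacterial counterpart, likewise differed only at its lead region, with 2282 and 2289 bp in Control, 2411 and 2135 bp in FK866, and 1931 and 1797 bp in FK866 plus succinate. Both FK866 plus succinate libraries were the lowest at Mrps7 (-409 bp against FK866, SE 149, adjusted p = 0.571, limma). Mrpl1, of the large subunit with a bacterial counterpart, had 4193 and 3874 bp in Control, 4085 and 3936 bp in FK866, and 3385 and 3244 bp in FK866 plus succinate. At Mrpl1 the FK866 plus succinate libraries were again the lowest (-696 bp against FK866, SE 232, adjusted p = 0.547, limma), but -51 bp of this lay at the start peak and -645 bp elsewhere in the window. Mrpl11, of the large subunit with a bacterial counterpart, had 774 and 1123 bp in Control, 1238 and 1401 bp in FK866, and 961 and 748 bp in FK866 plus succinate, so that FK866 lay above both other groups.

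The 3 wider genes were wider away from their lead region. Mrps35, a mitochondria-specific small-subunit gene, had 1558 and 1619 bp in Control, 1578 and 1582 bp in FK866, and 1966 and 2786 bp in FK866 plus succinate. At Mrps35 the 4 libraries without succinate lay close together and both libraries with it lay above them (796 bp against FK866, SE 285, adjusted p = 0.570, limma), with 9.5 bp of the difference at the lead region. Mrpl39, a mitochondria-specific large-subunit gene, had 1999 and 1537 bp in Control, 1747 and 1413 bp in FK866, and 2117 and 2954 bp in FK866 plus succinate. Mrps18a had 1554 and 3066 bp in Control, 1557 and 1777 bp in FK866, and 2979 and 3087 bp in FK866 plus succinate. The Control libraries of Mrps18a thus lay in both ranges, 1 near FK866 and 1 near FK866 plus succinate. At Mrpl39 and Mrps18a the lead regions differed by -44 and -6.5 bp between FK866 plus succinate and FK866, against 955.5 and 1366 bp over the whole window. The other narrower genes with the smallest p were Mrps17, Mrpl45, Mrpl51, Mrpl38, Mrpl57 and Mrpl12, from -435.5 bp (Mrpl45) to -254.5 bp (Mrpl12), and the other wider ones Mrpl37, Mrps36, Mrpl47, Mrpl30, Mrps23, Mrpl22 and Mrps30, from 172 bp (Mrps30) to 683 bp (Mrps23).

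FK866 plus succinate against Control uses libraries of both comparisons above, so the values are not independent of them. No gene of the set lost or gained all its peaks (background 0.512% lost, 0.334% gained), and none of the 78 passed an adjusted p of 0.05 (0 of 15362 genes, 0%; smallest adjusted p 0.438, limma). At an unadjusted p under 0.05, 1 gene was wider and 7 were narrower, against 3.47% and 5.51% of genes tested (8.98% in either direction). The median difference was -74.25 bp against -49 bp over all genes, with 17 genes wider and 61 narrower. It was -35.4 bp with quantile normalization (-5.10 bp over all genes) and -47.9 bp with each library scaled to its median (-13.1 bp). FK866 plus succinate lay above Control without overlap at 3 genes (background 13.4%) and below it at 22 (background 24.5%).

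Beside Mrps33, Mrpl1, Mrps15 and Mrps7, whose libraries are given above, the narrower genes at an unadjusted p under 0.05 were Mrps26, Mrpl43 and Mrps17. Mrps26, a mitochondria-specific small-subunit gene, had 1833 and 1894 bp in Control, 1597 and 1631 bp in FK866, and 1418 and 1623 bp in FK866 plus succinate. Mrpl43, the mitochondria-specific large-subunit gene paired with Twnk, had 1852 and 1902 bp in Control, 1661 and 1672 bp in FK866, and 1619 and 1594 bp in FK866 plus succinate. All 4 treated libraries lay below both Control libraries at Mrps26 and at Mrpl43, with FK866 plus succinate at -343 bp (SE 121, adjusted p = 0.521, limma) and -270.5 bp (SE 101, adjusted p = 0.546). Mrps17, a small-subunit gene with a bacterial counterpart, had 1182 and 1086 bp in Control, 979 and 1213 bp in FK866, and 811 and 796 bp in FK866 plus succinate, so that only the libraries with succinate stood below the rest. The wider gene was Mrps35 (787.5 bp, SE 285, adjusted p = 0.532, limma). The remaining genes with the smallest p were Mrps11, Mrpl57 and Mrps2, at -489, -326.5 and -218.5 bp, and Mrpl39, Mrps10, Mrps30, Mrps18a, Mrps14, Mrps36, Mrps5, Mrpl30 and Mrpl22, wider, from 139 bp (Mrps5) to 767.5 bp (Mrpl39).

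Each difference was split into the part at the lead region and the part in the rest of the window. Differences over 500 bp occurred at 5 genes for FK866 against Control, 10 for FK866 plus succinate against FK866 and 5 for FK866 plus succinate against Control, and for 5, 9 and 5 of them most of the difference lay outside the lead region. At the lead region alone, the median difference over the 78 genes was 5.5 bp for FK866 against Control (-1 bp over 14991 genes with such a region), -64.5 bp for FK866 plus succinate against FK866 (-61 bp) and -69.75 bp for FK866 plus succinate against Control (-62 bp). Lead regions were narrower at 38, 60 and 63 of the 78 genes (48.7%, 76.9% and 80.8%), against 50.5%, 71.3% and 71.8% of all genes. The shift toward narrower lead regions in FK866 plus succinate was found across the genome and was of like size at the mitochondrial ribosomal protein genes. Strongest-peak widths moved with it: the FK866 plus succinate libraries had the 2 lowest medians of the set (1443 and 1448 bp, against 1504 to 1551.5 bp). The median width over all peaks did not separate them, at 618 and 528 bp against 616 to 737 bp in the other 4. Only the second FK866 plus succinate library lay below that range. The part of depth and peak calling in this shift was not tested. The marker genes of ILC1 and NK cells were also covered over less length in these libraries (7096 to 7596 bp summed over 6 genes, against 7600 to 8637 bp in the other 4), and those of myeloid cells over more (2267 to 2489 bp over 5 genes, against 1377 to 1998 bp). The ILC1 and NK cell ranges nearly met, and 3 of those 6 genes had no peak in any library. The myeloid length lay largely at Cd14, with a mean of 1406 bp. The marker genes of ILC2s were not set apart (89178 to 89247 bp, against 85985 to 96394 bp). Those of ILC3s, T cells, B cells and epithelial cells were not set apart either. The part of any of these in the result was not tested.

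**Figure D4:**
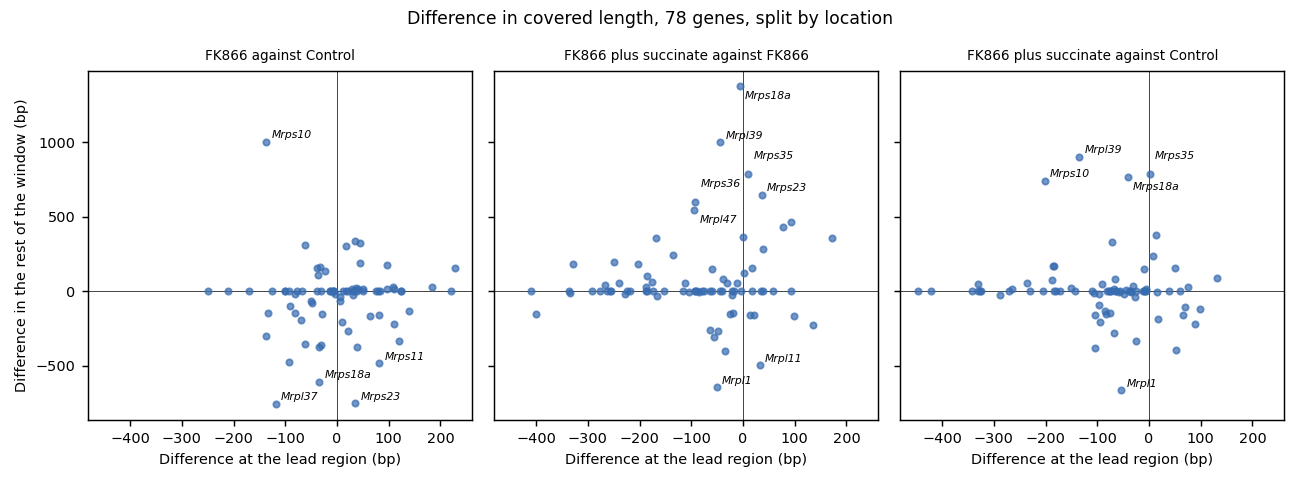
Difference in covered length of each of the 78 mitochondrial ribosomal protein genes, split into the part at the lead region (horizontal axis, bp) and the part in the rest of its window (vertical axis, bp), for the 3 comparisons; each point is a gene and the genes farthest from 0 on the vertical axis are named. Large differences lie along the vertical axis, such as 1002 bp at Mrps10 and 1372.5 bp at Mrps18a, and in both comparisons with succinate most points lie left of 0 on the horizontal axis.

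Measured instead as the share of a 4-kb window around the lead summit, which the rule for ties can set off the centre of the peak, the median difference was 0.025 percentage points for FK866 against Control, -1.75 for FK866 plus succinate against FK866 and -1.8 for FK866 plus succinate against Control, against -0.05, -1.51 and -1.54 over all genes. At an unadjusted p under 0.05, 4, 15 and 15 of the 78 were narrower (background 2.8%, 11.5% and 12.2%) and 0, 0 and 1 wider (2.29%, 1.93% and 1.76%). None passed an adjusted p of 0.05 in this window either, with smallest values of 0.855, 0.0986 and 0.104 (limma). The latter 2 belonged to Mrpl10, whose window lies past the gene's far end beside Lrrc46 and Osbpl7. It was covered over 54.0% and 55.1% in Control, 50.7% and 53.0% in FK866, and 37.8% and 38.9% in FK866 plus succinate. This 4-kb window runs beyond the gene span and 2 kb. Within the gene span and 2 kb, FK866 plus succinate at Mrpl10 differed by -69 bp from FK866 and -170 bp from Control. The lead region of Mrpl10 did not narrow there, with differences of 99.5 and 17.5 bp. Next came Mrps33, at 34.2% and 34.3% in Control, 30.2% and 29.8% in FK866, and 22.9% and 23.4% in FK866 plus succinate (-11.2 points against Control, adjusted p = 0.116, limma).

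The windows of the 78 genes held 196 merged peak regions. Every library had a peak in 102 of them (52.0%), and 57 (29.1%) rested on 1 library, against 21.7% and 49.5% of 101435 regions in the series. Most genes, 56 of 78, had 1 region present in all 6 libraries, 19 had 2 and 3 had 3. For FK866 against Control 3 regions were lost and 1 gained (background 2.04% and 1.4%), for FK866 plus succinate against FK866 2 were lost and 4 gained (1.68% and 2.76%), and for FK866 plus succinate against Control 1 was lost and 1 gained (2.06% and 2.44%). These regions lay 5842 to 53799 bp from the lead summit of their gene and their peaks were weak, with mean percentiles of 17.4 to 55.7. One of them, 10078 bp from the start peak of Mrps10, held peaks of 373 and 379 bp in the FK866 libraries and none in the other 4. In the window of Mrps21 a region had peaks of 364 and 493 bp in Control and none in any treated library.

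Other genes of mitochondrial translation were read out of the same fit. The 5 mitochondrial ribosomal proteins with other symbols, such as Dap3, 11 translation factors, 17 mitochondrial aminoacyl-tRNA synthetases, which charge transfer RNAs, and 22 genes for ribosome assembly and ribosomal RNA modification all had a peak in all 6 libraries. None passed an adjusted p of 0.05 in any comparison (limma). At an unadjusted p under 0.05 there was 1 wider gene for FK866 against Control, Eral1, which encodes a chaperone of the small ribosomal RNA, with 1691 and 1702 bp in Control and 2433 and 2026 bp in FK866. The background for FK866 against Control was 5.23% of all genes tested in either direction. It was 8.57% for FK866 plus succinate against FK866 and 8.98% for FK866 plus succinate against Control. In these comparisons with succinate, 3 and 2 of the 17 synthetase genes had an unadjusted p under 0.05. None of the 5, 11 and 22 genes of the other lists did, and no list was tested against the background. Mars2, for methionine, was narrower in both, with 2616 and 2590 bp in Control, 2621 and 2606 bp in FK866, and 2058 and 2072 bp in FK866 plus succinate. The 4 libraries without succinate lay close together at Mars2 and both with it were lower (-548.5 bp against FK866, SE 124, adjusted p = 0.488, limma). Aars2, for alanine, was narrower (-1078 bp) and Iars2, for isoleucine, wider (400.5 bp) against FK866, and Fars2, for phenylalanine, was narrower against Control (-1104.5 bp).

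Set beside these, the cytosolic ribosomal protein genes had median differences of -25.75 bp for FK866 against Control, -116.75 bp for FK866 plus succinate against FK866 and -157 bp for FK866 plus succinate against Control, and the respiratory chain genes 15.5, -70.25 and -39.5 bp. At an unadjusted p under 0.05, 1, 7 and 9 of 82 cytosolic ribosomal protein genes were narrower and 1, 0 and 0 wider. Of the 78 mitochondrial ones 2, 4 and 7 were narrower and 1, 3 and 1 wider. The background was 3.68%, 3.76% and 5.51% narrower and 1.54%, 4.81% and 3.47% wider. The difference between these families was not tested.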

How the data were processed

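CUT&Tag was measured in 6 libraries in 3 groups, taken with their replicate numbers from the sample titles. Per the submitters' processing notes, cutadapt 1.9, Bowtie2 2.5.0 and the build mm10 were used; the peak caller was not given in the sources used here. One peak list per library was deposited by the authors, with a score per peak (10 times -log10 p for 99.88% to 99.98% of peaks), a fold enrichment over the local background (a ratio, the authors' own value), and a -log10 p and -log10 q. These deposited values change with sequencing depth and served to rank and filter peaks within a list. The fold values also served to describe genes and gene sets and to infer the background. They were not compared between groups. The weakest peaks lay near a p of 0.05. The lists hold no signal track, so peak presence and width were compared and signal height was not.

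From the lists, the bases under peaks within each gene's span and 2 kb (chromosomes 1 to 19, X and Y; 43 to 55 peaks per library elsewhere were left out) were counted and compared by lmFit and a trended eBayes (limma 3.58.1, R 4.3.3) for the 15362 of 21887 genes covered in at least 2 libraries, with no scaling, 1 spread over all 6 libraries and Benjamini-Hochberg adjustment. Other steps ran in Python 3.11.15 with numpy 2.4.6 and pandas 2.3.3. With 2 libraries against 2, an exact permutation test of a single value cannot go below 0.333, so none is given. On simulated data for FK866 against Control, 13% of 1000-bp and 65% of 2000-bp changes were recovered, with 4 false calls among 15362 genes. The changes were placed only in genes with long covered lengths, above those of most mitochondrial ribosomal protein genes. Background fragments per position were inferred from the steps between fold values. Recomputing p from them matched within 0.02 for 97.1% to 98.8% of those peaks with a fold at a whole step (tolerance 0.002), which were 28.3% to 44.5% of each list.

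Named genes were, per comparison, the 10 wider and the 10 narrower with the smallest unadjusted p, those losing or gaining peaks, and the 5 longest and 5 shortest. The gene set, the lists and the tests were chosen with earlier results of these data known. Promoters come from RefSeq. Alternatives covered the window, scaling, peak threshold, gene filter, libraries fitted and left-out libraries; the lead region alone was added after seeing the data.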

Additional observations from a re-analysis of the deposited data

How the results depend on the processing

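No mitochondrial ribosomal protein gene passed an adjusted p of 0.05 under any of the 20 alternatives of each comparison (limma); the smallest adjusted p over them was 0.521 for FK866 against Control, 0.0986 for FK866 plus succinate against FK866 and 0.104 for FK866 plus succinate against Control, and the number at an unadjusted p under 0.05 ranged over 1 to 5, 1 to 15 and 3 to 16 genes. No gene lost or gained all its peaks under the 10 alternatives run for presence. Those that only left out a library could not have changed this, because each gene had a peak in every library. The median difference for FK866 against Control went from -12.75 bp to 38.9 bp with each library scaled to its median, and it was also positive with quantile normalization (32.75 bp); the cause was not tested. For FK866 plus succinate against Control it was -35.4 bp with quantile normalization and -47.9 bp with scaling. For FK866 plus succinate against FK866 it was -32.75 bp over the gene span alone, a window without flanks, and -1.75 percentage points in the 4-kb window, and for FK866 plus succinate against Control -1.8 points there, on another scale. Leaving out 1 library in turn, with a lone library assumed to vary like the other groups, gave -47.5 (without FK866 replicate 1) to -2.5 bp (without Control replicate 1) for FK866 against Control, -87.75 to -55 bp (without FK866 replicate 1) for FK866 plus succinate against FK866, and -93.5 to -74.25 bp for FK866 plus succinate against Control.

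Deviations of same-numbered libraries from their group means correlated at -0.00854 (Control and FK866), -0.206 (Control and FK866 plus succinate) and 0.0236 (FK866 and FK866 plus succinate) over 15362 genes. These values cannot tell whether the libraries were paired by culture or mouse, because differences in peak number between whole libraries also enter them. With the replicate block, 0 genes were called, the smallest adjusted p was 1, 0.662 and 0.580 in the order above, and 2, 3 and 5 genes had an unadjusted p under 0.05, against 3, 7 and 8 without it. Depth is known only as a relative background. The fit recovered 13% of simulated 1000-bp changes, placed in 100 of the 15362 genes fitted. These 100 were drawn only from genes with covered lengths above those of most mitochondrial ribosomal protein genes. Recovery at the mitochondrial ribosomal protein genes, with their own covered lengths and spread, was not measured. The rate therefore cannot say which of their differences were detectable, and the lack of calls does not show a lack of change.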

Other observations

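The ribosomal RNAs of the mitochondrial ribosome are encoded in mitochondrial DNA, which the comparisons above do not use. Each list held peaks there: 8 and 6 in the Control libraries, 7 and 8 in FK866, and 6 and 7 in FK866 plus succinate. They covered 6006 and 6784 bp in Control, 6323 and 6951 bp in FK866, and 5396 and 5772 bp in FK866 plus succinate. Both FK866 plus succinate libraries lay below the other 4, and the difference was not tested.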
